A study of Mus musculus with 9 samples.

Results

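The genes described here are 35 nuclear receptors of the mouse, a fixed list of names, and some of them gave signals near background in these livers. The list does not hold every receptor of the liver (Nr1d2, Ppara and Nr1h4 are among those outside it). A probe set was assigned to a receptor where the probe annotation gave that receptor as its only gene symbol, which matched 33 of the 35 genes to 1 probe set each, among 28815 probe sets on the array. Nr1h2 and Nr2e3 were not analysed here because no probe set carried them as a single symbol. Liver RNA came from female mice on a C57BL/6J background at 15 to 16 months of age, with 3 arrays in each of 3 groups. The WTAL group was wild type with free access to standard chow, the WTCR group was wild type on a short-term calorie restricted diet, and the Dgat1-/-AL group lacked Dgat1, an enzyme of triglyceride synthesis, in the whole animal and ate chow freely. Liver was taken whole, so fewer cells of a type and less RNA per cell cannot be told apart.

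Nuclear receptors are transcription factors, and many of them are switched by small lipophilic ligands such as sterols, bile acids, retinoids, steroid hormones and drugs. Most bind short DNA repeats built on the hexamer AGGTCA, many of them as heterodimers with a retinoid X receptor (RXR), and they recruit coactivators or corepressors to their target genes. In the liver they are known for matching bile acid, cholesterol, drug and glucose metabolism to feeding. Array data of this kind show the mRNA of a receptor and of its targets, not the ligand or the protein.

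Some facts of the whole series bear on these values. The log2 signal of Dgat1 itself was 5.39 to 6.14 in the Dgat1-/-AL arrays and 8.56 to 8.90 in the WTCR arrays, but 7.86, 5.67 and 8.05 in WTAL replicates 1, 2 and 3, so the array labelled WTAL replicate 2 went against its label. Dgat1-/-AL replicate 1 stood apart from the other 2 arrays of its group, with 18.1% of all probe sets more than 1.3-fold from their mean. Each of the 9 arrays was therefore left out in turn, and calls that depended on one are given beside the result for the genes named. Among clock genes 11 of 17 probe sets were higher and 1 lower in WTCR than in WTAL (1 to 3 lower with 1 array left out), where 4.25% and 3.81% of all probe sets were. Calorie restriction and a different phase of the day or of feeding therefore cannot be told apart. Markers of hepatocytes gave mean log2 signals of 12.6 to 13.1 in every array. Both comparisons against WTAL share the same 3 WTAL arrays.

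By the threshold used in the study, a fold over 1.3 with an unadjusted limma p under 0.05, 4 of 33 receptors (12.1%) were called between WTCR and WTAL, where 8.06% of all probe sets were called. Nr1i2 and Nr3c2 were higher in WTCR (6.06% of receptors, against 4.25% of all probe sets called higher), and Nr1h3 and Esr1 were lower (6.06%, against 3.81%). None of the 4 had a Benjamini-Hochberg adjusted p below 0.05, as 3.03% of all probe sets did, while 11 receptors had an unadjusted p under 0.05 (33.3%, against 15.1% of all probe sets). Between Dgat1-/-AL and WTAL 0 receptors were called, where 1.23% of all probe sets were (0.465% higher and 0.76% lower). In that comparison limma gave 0 receptors an unadjusted p under 0.05, where 4.57% of all probe sets had one, and 0.0% of all probe sets had an adjusted p under 0.05. Compared directly, 5 receptors (15.2%) were called between WTCR and Dgat1-/-AL, where 8.59% of all probe sets were (4.66% higher and 3.93% lower). Those 5 were the same 4 genes in the same directions and Nr5a2, which was lower in WTCR. The calls differ in how far they depend on single arrays: Nr1h3 and Esr1 were called between WTCR and WTAL whichever array was left out, Nr1i2 in all fits but 1, and Nr3c2 in only 5 of 9.

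**Figure D1:**
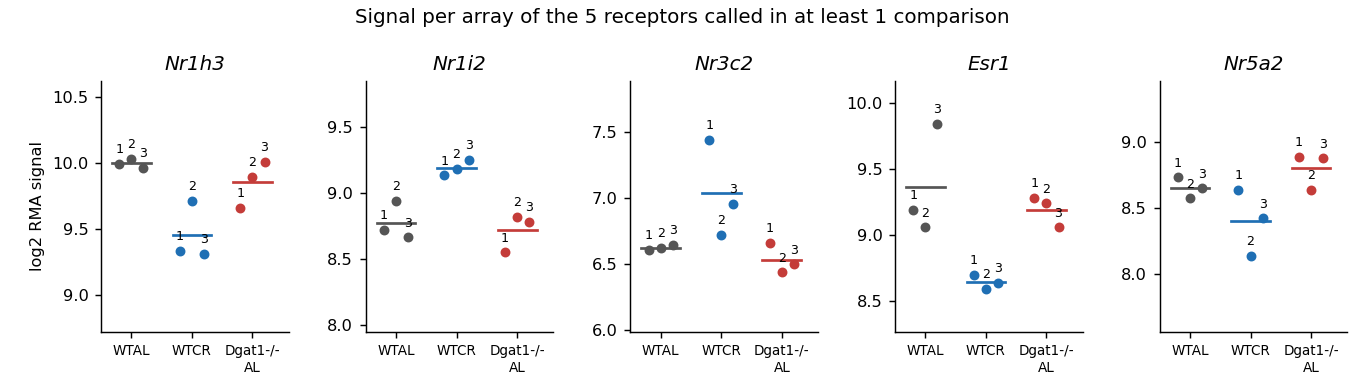
Log2 RMA signal (y axis) of the 5 receptors called in at least 1 comparison, grouped along the x axis, where small digits give the replicate and bars the group mean; each panel spans the same log2 range, so heights compare within a gene and not between genes. All 3 WTCR arrays lie above every other array for Nr1i2 and Nr3c2 and below every other array for Esr1.

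The stretch of 150 bases before the most upstream RefSeq start is shown for these 5 genes (GRCm38.p6, each on the strand of its gene, 5′ to 3′), because these receptors were called in at least 1 comparison. Esr1, Nr1h3 and Nr5a2 each had 2 annotated starts, and which start these livers used was not tested. Capitals mark the receptor hexamer AGGTCA where a search of both strands found it. The intervals are chr10:4611839-4611988 on the plus strand for Esr1, chr2:91195117-91195266 on the minus strand for Nr1h3, chr16:38294825-38294974 on the minus strand for Nr1i2, chr8:76902180-76902329 on the plus strand for Nr3c2 and chr1:136960449-136960598 on the minus strand for Nr5a2.
Esr1: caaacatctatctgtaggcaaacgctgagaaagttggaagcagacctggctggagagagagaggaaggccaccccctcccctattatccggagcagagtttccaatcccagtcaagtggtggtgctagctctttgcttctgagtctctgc
Nr1h3: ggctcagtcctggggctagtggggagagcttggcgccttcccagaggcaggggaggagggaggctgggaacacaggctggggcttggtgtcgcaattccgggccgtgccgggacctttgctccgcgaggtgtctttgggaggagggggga
Nr1i2: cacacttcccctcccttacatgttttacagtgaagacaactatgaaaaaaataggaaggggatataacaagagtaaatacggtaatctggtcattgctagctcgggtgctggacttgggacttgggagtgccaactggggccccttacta
Nr3c2: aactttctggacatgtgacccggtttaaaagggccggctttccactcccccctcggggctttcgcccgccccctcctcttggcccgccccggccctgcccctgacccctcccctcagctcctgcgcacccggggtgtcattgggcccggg
Nr5a2: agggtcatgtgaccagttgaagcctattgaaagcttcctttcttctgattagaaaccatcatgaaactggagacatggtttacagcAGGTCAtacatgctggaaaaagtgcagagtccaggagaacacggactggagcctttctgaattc
Of these stretches only that of Nr5a2 held the hexamer, beginning at position -64 relative to the start. Their base composition ranged from 44.7% G and C in Nr5a2 to 70.0% in Nr3c2. Over windows from 250 bases before to 50 bases after each RefSeq start, AGGTCA was present in 9 of 52 windows of the receptor genes (17.3%, against 16.3% of 32851 windows of all genes), the clock E-box CACGTG in 4 (7.69%, against 7.15%) and the D-box TTATGTAA in 0 (against 0.938%). The windows with AGGTCA belonged to 8 genes, namely Nr5a2, Rxra, Rxrg, Rara, Rarg, Pparg, Nr6a1 and Nr0b1, and those with CACGTG to Nr1i3, Rara and Esr2.

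Among the sensors of xenobiotics and sterols, Nr1i2, which encodes the pregnane X receptor (PXR) that responds to drugs and bile acids, rose with calorie restriction. Its log2 signal was 8.72, 8.94 and 8.66 in WTAL replicates 1 to 3, 9.13, 9.19 and 9.25 in WTCR and 8.55, 8.82 and 8.78 in Dgat1-/-AL. Every WTCR array lay above every array of the other groups, and the WTAL and Dgat1-/-AL arrays overlapped. The log2 fold change was 0.41 ± 0.099 (SE, n = 3 per group, 1.33-fold, adjusted p = 0.066 from limma) against WTAL and 0.47 ± 0.099 against Dgat1-/-AL (1.39-fold, adjusted p = 0.043), the only receptor in any comparison with an adjusted p under 0.05, which 3.06% of all probe sets reached between these groups. Without WTAL replicate 3 the first value was 0.36, below the fold threshold, and without the array labelled WTAL replicate 2 it was 0.50. In Dgat1-/-AL the difference from WTAL was -0.06 with a 95% interval of -0.28 to 0.17.

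Nr1i3 encodes the constitutive androstane receptor (CAR), which shares many drug-metabolism targets with PXR. The signal on the log2 scale was 9.81, 9.93 and 9.75 in WTAL, 10.52, 9.91 and 9.74 in WTCR and 9.76, 9.50 and 9.72 in Dgat1-/-AL. A single array, WTCR replicate 1, was high, and the other 2 WTCR arrays lay within the WTAL range or below it. The difference of 0.23 ± 0.18 between WTCR and WTAL was not called and was -0.01 without that array. Against Dgat1-/-AL the WTCR value was 0.39 ± 0.18 (adjusted p = 0.34 from limma), and it was called only without WTCR replicate 3 (0.55).

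Nr1h3, which encodes the liver X receptor alpha, a sensor of oxysterols, fell with calorie restriction. Across the arrays its log2 signal was 10.00, 10.04 and 9.97 in WTAL, 9.34, 9.71 and 9.31 in WTCR and 9.66, 9.90 and 10.01 in Dgat1-/-AL. All 3 WTCR arrays lay below all 3 WTAL arrays, while WTCR replicate 2 lay above the lowest Dgat1-/-AL array. Against WTAL Nr1h3 was 1.46-fold lower (-0.55 ± 0.12, adjusted p = 0.055 from limma), and the value stayed between -0.68 and -0.48 with any 1 array left out. Against Dgat1-/-AL it was -0.40 ± 0.12 (adjusted p = 0.14), a call that ended without WTCR replicate 1 (-0.34) or 3 (-0.33) or without Dgat1-/-AL replicate 3 (-0.33). Dgat1-/-AL and WTAL differed by -0.14, with a 95% interval of -0.43 to 0.14.

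The remaining sensors had low signals. Nr1h5, a receptor for sterols related to the farnesoid X receptor, and Vdr, the vitamin D receptor, were near background, defined as at or under the 95th percentile of 1209 probe sets for olfactory and vomeronasal receptors, about 5.22 on the log2 scale. Nr1h5 was lower in every WTCR array and in every Dgat1-/-AL array than in any WTAL array, by -0.23 ± 0.081 and -0.14 ± 0.081, both below the fold threshold. Vdr gave 0.12 ± 0.091 in WTCR and 0.04 ± 0.091 in Dgat1-/-AL.

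Among the retinoid receptors, Rxra encodes the main RXR of hepatocytes, the partner with which PXR, CAR and the liver X receptors bind DNA. By array, its log2 signal was 7.98, 8.22 and 8.28 in WTAL, 9.06, 8.68 and 8.53 in WTCR and 9.54, 7.97 and 8.15 in Dgat1-/-AL. Every WTCR array lay above every WTAL array, but the highest value of all was that of Dgat1-/-AL replicate 1, the array that stood apart, and the other 2 Dgat1-/-AL arrays lay below the WTAL maximum. The SD of the Dgat1-/-AL arrays was 0.859, the widest spread of any receptor in any group (median 0.127 in that group). With the spread shared by all groups, the WTCR difference of 0.60 ± 0.36 was not called. It was called without Dgat1-/-AL replicate 1 at the same value of 0.60 and with a narrower spread, and in the fit of WTCR and WTAL arrays alone. The Dgat1-/-AL difference of 0.40 ± 0.36 became -0.10 without that replicate, and WTCR then exceeded Dgat1-/-AL by 0.70, also called.

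The other retinoid receptors, which sense retinoic acid, were not called. Rxrg was lower in every WTCR array (6.23 to 6.39) and every Dgat1-/-AL array (6.28 to 6.52) than in any WTAL array (6.53 to 6.66), by -0.26 ± 0.083 and -0.16 ± 0.083, both below the fold threshold. Rxrb, the ubiquitous RXR, gave 0.06 ± 0.092 and -0.03 ± 0.092. Rara gave 0.00 ± 0.13 in WTCR and 0.13 ± 0.13 in Dgat1-/-AL, where replicate 1 was more than 1.3-fold above the other 2 arrays. Rarg had an identical log2 signal in 6 of 9 arrays and therefore says little about any group.

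Among the peroxisome proliferator-activated receptors that sense fatty acids, Pparg, the main regulator of fat cell genes, had log2 signals of 6.96, 7.29 and 7.10 in WTAL, 7.75, 7.28 and 7.39 in WTCR and 7.46, 7.08 and 7.28 in Dgat1-/-AL. Of the WTCR arrays only replicates 1 and 3 lay above the WTAL arrays, and Dgat1-/-AL replicate 1 did so too. The WTCR difference of 0.36 ± 0.15 (1.28-fold, adjusted p = 0.30 from limma) lay just under the fold threshold and was called without WTAL replicate 2 or without WTCR replicate 2 (0.45 in both fits), while without WTCR replicate 1, the highest array, it was 0.22. The Dgat1-/-AL difference was 0.16 ± 0.15. Ppard, which is expressed in many tissues, had log2 signals of 6.51, 6.27 and 6.36 in WTAL, 6.12, 6.32 and 6.32 in WTCR and 6.39, 6.34 and 6.32 in Dgat1-/-AL, and the groups overlapped. Its differences from WTAL were -0.12 ± 0.085 in WTCR and -0.03 ± 0.085 in Dgat1-/-AL.

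Rora, a receptor that binds DNA as a monomer and acts beside the clock on many hepatic genes, had log2 signals of 8.72, 8.38 and 8.59 in WTAL, 8.83, 8.60 and 8.75 in WTCR and 8.59, 8.70 and 8.53 in Dgat1-/-AL. The groups overlapped, with differences from WTAL of 0.16 ± 0.10 in WTCR and 0.05 ± 0.10 in Dgat1-/-AL. Rorb, known from the nervous system, was near background, with a difference of 0.02 ± 0.066 in WTCR.

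**Figure D2:**
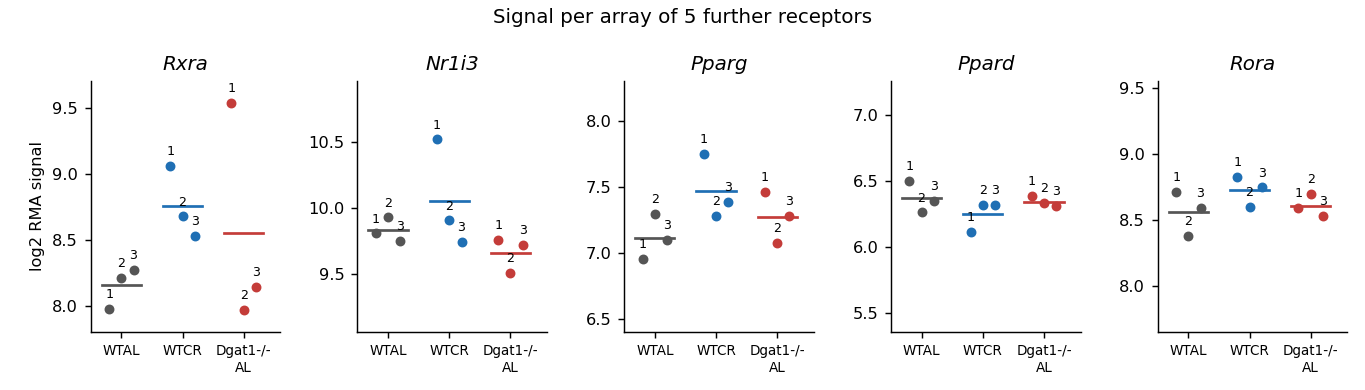
Log2 RMA signal (y axis) of 5 receptors shown whatever their result, grouped along the x axis, where small digits give the replicate and bars the group mean. WTCR replicate 1 is the highest WTCR array for Rxra, Nr1i3 and Pparg, and Dgat1-/-AL replicate 1 is the highest array of all for Rxra.

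Among the steroid and estrogen-related receptors, Esr1, which encodes estrogen receptor alpha, showed the largest difference of any receptor between WTCR and WTAL. Its log2 signal was 9.19, 9.06 and 9.84 in WTAL, 8.69, 8.59 and 8.64 in WTCR and 9.28, 9.24 and 9.06 in Dgat1-/-AL. The WTCR arrays lay close together (SD 0.052) and below every other array, whereas WTAL replicate 3 was more than 1.3-fold above the other 2 WTAL arrays. Against WTAL Esr1 was 1.65-fold lower (-0.72 ± 0.18, adjusted p = 0.077 from limma), and with any 1 array left out the value lay between -0.88 and -0.48, the smallest being without WTAL replicate 3. Against Dgat1-/-AL it was -0.55 ± 0.18 (adjusted p = 0.16), between -0.62 and -0.51 with any array left out and called in all 9 fits. Dgat1-/-AL and WTAL differed by -0.17 with a 95% interval of -0.58 to 0.24, and the sign turned without WTAL replicate 3 (0.07). All mice were female, and their estrous stage was not given in the sources used here.

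Nr3c2, which encodes the mineralocorticoid receptor, had log2 signals of 6.61, 6.62 and 6.65 in WTAL, 7.44, 6.72 and 6.96 in WTCR and 6.66, 6.44 and 6.50 in Dgat1-/-AL. All WTCR arrays lay above all other arrays, but WTCR replicate 2 lay close to the highest of them (6.72 against 6.66), and replicate 1 was far above both other WTCR arrays. The log2 fold change was 0.41 ± 0.16 against WTAL (1.33-fold, adjusted p = 0.25 from limma) and 0.51 ± 0.16 against Dgat1-/-AL (1.42-fold, adjusted p = 0.15). The call against WTAL ended without WTCR replicate 1 (0.21) and without WTAL replicate 1 (0.41), 2 (0.41) or 3 (0.43), and the call against Dgat1-/-AL ended without WTCR replicate 1 (0.31).

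Of the estrogen-related receptors, orphan receptors that act on genes of oxidative metabolism, Esrrg was higher in every WTCR array (6.54 to 6.68) than in any other array (6.22 to 6.47), by 0.24 ± 0.085 against WTAL and 0.20 ± 0.085 against Dgat1-/-AL, both below the fold threshold. Its signal was identical in 4 of the 9 arrays. Esrrb gave 0.15 ± 0.10 in WTCR and 0.19 ± 0.10 in Dgat1-/-AL. Esr2, which encodes estrogen receptor beta, was near background and gave 0.01 ± 0.070 in WTCR.

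Nr5a2 encodes the liver receptor homolog 1 (LRH-1), which acts on genes of bile acid synthesis and cholesterol transport. The log2 signal of its probe set was 8.73, 8.57 and 8.65 in WTAL, 8.64, 8.14 and 8.42 in WTCR and 8.89, 8.64 and 8.87 in Dgat1-/-AL. WTCR replicates 2 and 3 were lower than every other array, and WTCR replicate 1 equalled the lowest Dgat1-/-AL array. Between WTCR and Dgat1-/-AL the difference was -0.40 ± 0.13 (1.32-fold lower, adjusted p = 0.15 from limma), a call that ended without WTCR replicate 2 (-0.27) or without Dgat1-/-AL replicate 1 (-0.36) or 3 (-0.36). Neither group was called against WTAL, with -0.25 ± 0.13 in WTCR and 0.15 ± 0.13 in Dgat1-/-AL. Of the other members of this branch, Nr5a1, the steroidogenic factor of adrenal and gonad, gave the same signal in 6 of 9 arrays, and Nr6a1, a germ cell receptor, gave 0.05 ± 0.068 in WTCR. Nr0b1, a receptor without a DNA-binding domain of the usual form, was near background and gave 0.22 ± 0.095 in WTCR, below the fold threshold.

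The orphan receptors of the NR2 group were not called in any comparison. Nr2c2, which encodes the testicular receptor 4, was higher in every WTCR array (8.14 to 8.30) and every Dgat1-/-AL array (8.07 to 8.12) than in any WTAL array (7.95 to 8.03), by 0.23 ± 0.063 and 0.12 ± 0.063. These are small differences, 1.17-fold at most, in a gene whose arrays varied little. Nr2f2, a COUP factor that is also expressed in vascular cells, gave 0.22 ± 0.17 in WTCR and 0.23 ± 0.17 in Dgat1-/-AL, and Nr2f1, its close relative, gave 0.21 ± 0.078 and 0.05 ± 0.078. The group means of Nr2f1 were 5.20 in WTAL, 5.41 in WTCR and 5.25 in Dgat1-/-AL, close to the background value of about 5.22. Nr2c1 and Nr2f6 differed by at most 0.02 on the log2 scale in either group, with SEs of 0.20 and 0.10. Nr2e1 and Hnf4g were near background. Hnf4g was lower in all WTCR arrays (3.69 to 4.03) than in all Dgat1-/-AL arrays (4.08 to 4.74), at a level where the array gives little information, and was called lower there without Dgat1-/-AL replicate 1 or 2 or with array weights.

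The NR4A receptors, immediate early genes that respond to glucagon and stress signals in liver, differed little at the time of sampling. Against WTAL, Nr4a1 differed by -0.04 ± 0.13 (log2) in WTCR and by 0.04 ± 0.13 in Dgat1-/-AL. Its group means of 5.47 to 5.55 lay slightly above background. Nr4a2 and Nr4a3 were near background. Among 12 other immediate early genes 1 was called between WTCR and WTAL, where 8.06% of all probe sets were (4.25% higher). It was Myc, which was higher in WTCR (0.69 ± 0.19, adjusted p = 0.10 from limma), and without WTCR replicate 3 the count was 2.

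**Figure D3:**
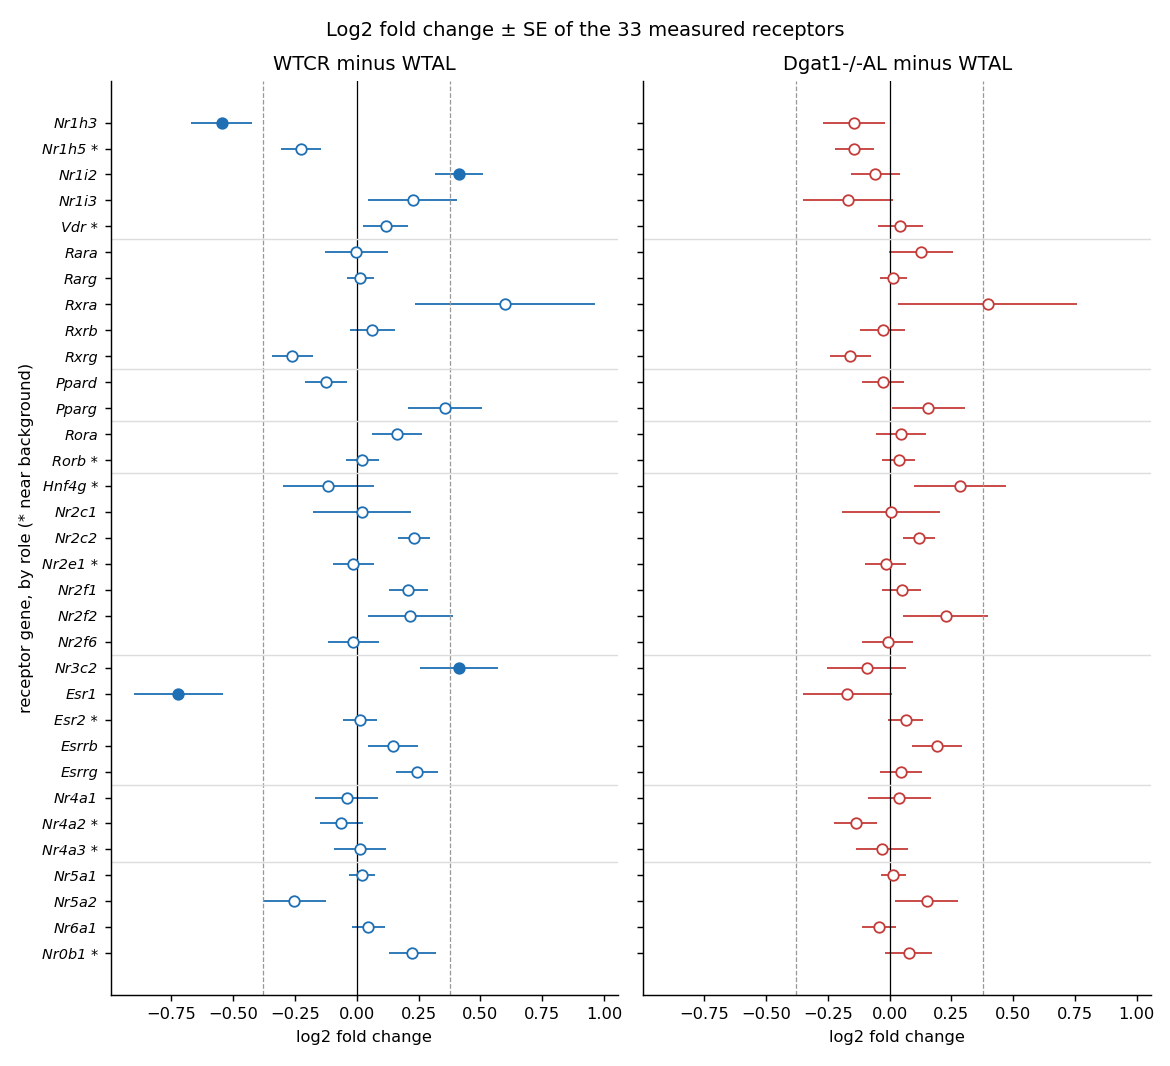
Log2 fold change ± SE (x axis) of the 33 receptors (y axis, ordered by role, with an asterisk for the 9 near background) in WTCR and in Dgat1-/-AL, each against the same 3 WTAL arrays; filled points were called and dashed lines mark the fold of 1.3. The 4 filled points are Nr1h3, Nr1i2, Nr3c2 and Esr1 in WTCR, and none is filled in Dgat1-/-AL.

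Over all 33 receptors the log2 fold change ran from -0.72 (Esr1) to 0.60 (Rxra) in WTCR, with a median of 0.02 against 0.00 for all probe sets, and from -0.17 (Esr1) to 0.40 (Rxra) in Dgat1-/-AL, with a median of 0.02 against 0.00. The arrays of WTCR and WTAL did not overlap for 9 receptors (27.3%, against 19.6% of all probe sets), those of Dgat1-/-AL and WTAL for 3 (9.09%, against 7.02%) and those of WTCR and Dgat1-/-AL for 6 (18.2%, against 16.1%). With 3 arrays against 3 an exact permutation test cannot go below a p of 0.1, so no such test was run. The labels make each array a separate sample of its group, and the methods give 3 mice per group.

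Within groups, receptors differed between mice about as much as other genes. The median SD on the log2 scale was 0.084 in WTAL, 0.117 in WTCR and 0.127 in Dgat1-/-AL, against 0.097, 0.104 and 0.124 for all probe sets. In WTCR replicate 1, 6 receptors lay more than 1.3-fold from the mean of the other 2 arrays, and all 6 were higher there (Nr1i3, Rxra, Pparg, Nr2c1, Nr2f2 and Nr3c2), where 8.97% of all probe sets lay as far. In Dgat1-/-AL replicate 1 there were 3, all higher (Rara, Rxra and Nr2c1), where 18.1% of all probe sets did. In the array labelled WTAL replicate 2 only Esr1 did, and without it limma called Nr1i2 and Pparg higher with calorie restriction and Nr1h3 and Esr1 lower, so that Nr3c2 lost its call and Pparg gained one, and 0 receptors with Dgat1 loss.

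Target genes of the same receptors were read from lists of names, and the membership of each gene was not tested. In WTCR against WTAL 4.25% of all probe sets were called higher and 3.81% lower, and in Dgat1-/-AL against WTAL 0.465% and 0.76%. Of 20 probe sets for 19 CAR and PXR targets, which take up, oxidize, conjugate and export drugs and steroids, 10 were higher in WTCR and 0 lower (1 lower without WTCR replicate 1, with array weights, with single-symbol probe sets or with the replicate number as a block), with a median log2 fold change of 0.54 against 0.00 for all probe sets. Abcb1a, a drug export pump, rose from 6.89, 7.07 and 7.32 in WTAL to 8.44, 7.79 and 8.48 in WTCR, without overlap. Its log2 fold change was 1.14 ± 0.20 (adjusted p = 0.022 from limma). Ces2a, a carboxylesterase, rose by 0.51 ± 0.11 (adjusted p = 0.040), from 10.70, 10.85 and 10.94 to 11.46, 11.24 and 11.33. Cyp3a11 and Cyp2b10, the classical targets of PXR and of CAR, were higher by 1.33 ± 0.46 (not called without WTAL replicate 3 at 0.92 or without WTCR replicate 2 at 1.27 or 3 at 1.24) and 1.02 ± 0.32, and Alas1, the first enzyme of heme synthesis, by 1.68 ± 0.42. Cyp2b9, on the same list, had a WTCR value of -0.57 ± 0.25 that was not called against WTAL (called without WTCR replicate 1 at -0.86) but was lower than in Dgat1-/-AL (-0.83 ± 0.25, adjusted p = 0.14). In Dgat1-/-AL 0 of the 20 were called against WTAL, with a median of 0.28, while 2 were called higher without the array labelled WTAL replicate 2 or without Dgat1-/-AL replicate 2, and 1 without replicate 1 of either group. Several of these enzymes, and Alas1, are also known to follow the time of day and feeding, which cannot be told apart from the diet here.

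**Figure D4:**
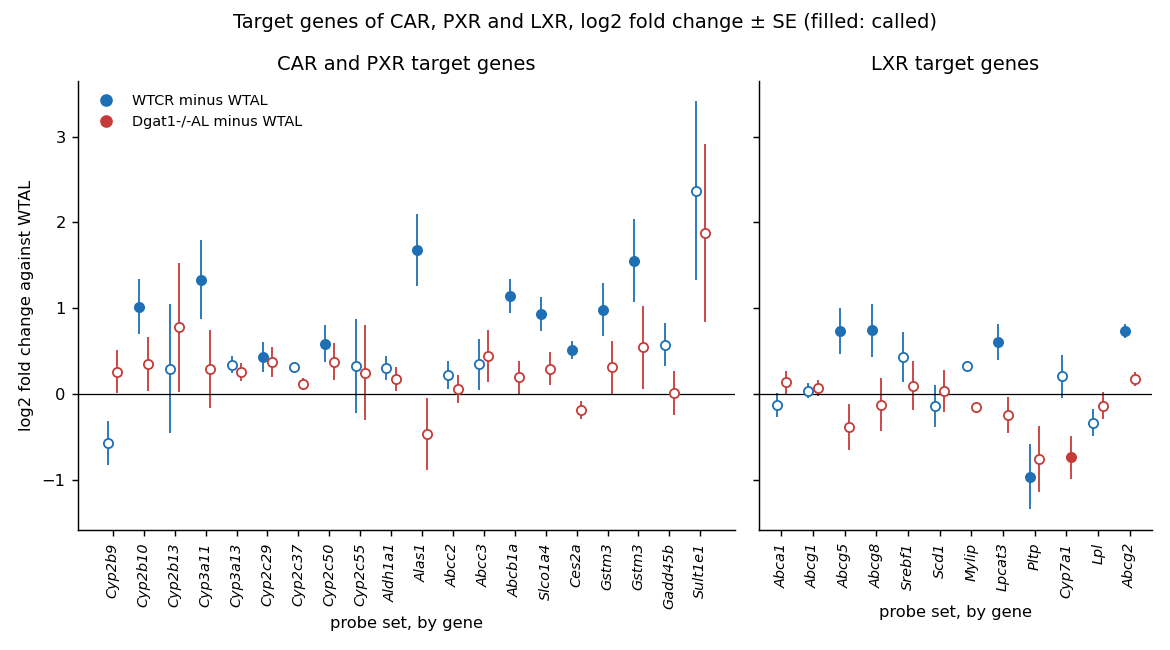
Log2 fold change against WTAL ± SE (y axis) of the probe sets of CAR and PXR target genes and of liver X receptor (LXR) target genes (x axis), in WTCR and in Dgat1-/-AL; filled points were called, and a gene named more than once has more than 1 probe set. In WTCR 10 of 20 CAR and PXR probe sets are filled above 0, against none in Dgat1-/-AL.

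Of 12 genes on the liver X receptor list, 4 were higher in WTCR and 1 lower, while Nr1h3 itself was lower. Abcg2, a drug transporter, was higher by 0.73 ± 0.082 (adjusted p = 0.0074 from limma). It was the only gene of the list called against WTAL with an adjusted p under 0.05, and whether it follows this receptor was not tested. Lpcat3, an enzyme of phospholipid remodeling, was higher by 0.61 ± 0.21 (adjusted p = 0.19 from limma). Mylip was higher by 0.33 ± 0.056 (adjusted p = 0.022 from limma) but lay under the fold threshold. Abcg5 and Abcg8, which form the sterol export pump of the bile canaliculus, were higher by 0.73 ± 0.27 and 0.74 ± 0.31, and Pltp, a plasma phospholipid transfer protein, was lower by -0.96 ± 0.38. The Pltp call ended when replicate 2 or 3 of WTAL or of WTCR was left out (the smallest being -0.64, without WTAL replicate 3), and the Lpcat3 call without replicate 1 of WTAL (0.51) or of WTCR (0.44). Srebf1 and Abca1, the targets most used as readouts of the receptor, were not called. The count of 4 was 1 without WTAL replicate 1 or WTCR replicate 1 and 2 without WTAL replicate 3, and the 1 lower was 0 without the array labelled WTAL replicate 2 or WTCR replicate 2. In Dgat1-/-AL 1 was lower, Cyp7a1, the rate-limiting enzyme of bile acid synthesis, at 10.63, 11.73 and 11.38 against 11.79, 11.93 and 12.21 in WTAL (-0.73 ± 0.25, adjusted p = 0.97). Without WTAL replicate 3 it was not called (-0.62), and without Dgat1-/-AL replicate 1, the array that stood apart, the difference was -0.43 and still called. The number lower in Dgat1-/-AL was 3 without its replicate 1 and 2 without WTAL replicate 1. Between WTCR and Dgat1-/-AL, where Nr1h3 was also called lower in WTCR, 6 genes of the list were higher in WTCR and 0 lower. Among all probe sets 4.66% were higher and 3.93% lower in that comparison. With 1 array left out, 5 to 7 genes of the list were higher there and 0 lower.

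Of 7 LRH-1 targets, Abcg5 and Abcg8 were higher in WTCR and Cyp8b1, which sets the bile acid pool toward cholic acid, was lower (-1.02 ± 0.35, adjusted p = 0.19 from limma). The Cyp8b1 call ended without WTAL replicate 3 (-0.95) or without WTCR replicate 1 (-0.81) or 3 (-0.96), and neither transporter was called without WTAL replicate 1, WTAL replicate 3 or WTCR replicate 1. The number of LRH-1 targets called higher against WTAL was 1 without WTCR replicate 3 or Dgat1-/-AL replicate 3 and 3 without Dgat1-/-AL replicate 1 or 2. Against Dgat1-/-AL, where Nr5a2 was called, 3 were higher in WTCR (Abcg5, Cyp7a1 and Abcg8) and 2 lower (Cyp8b1 and Nr0b2). Of all probe sets 4.66% were called higher and 3.93% lower there. With 1 array left out these counts ran from 2 to 4 higher and 0 to 2 lower, and 0 were lower in the fit of those 2 groups alone. Of 7 retinoic acid targets 1 was called in WTCR, Cyp26a1, which degrades retinoic acid. On the log2 scale its arrays read 6.88, 8.30 and 8.52 in WTAL, 10.15, 10.04 and 10.57 in WTCR and 7.87, 7.41 and 8.25 in Dgat1-/-AL, without overlap between WTCR and the others (2.35 ± 0.41 against WTAL, adjusted p = 0.023 from limma). Without Dgat1-/-AL replicate 1, 2 other retinoic acid targets were lower. Of 9 PPAR gamma targets, Fabp4, a fatty acid carrier of fat cells and macrophages, was higher in WTCR (0.42 ± 0.18, not called in 6 of the 9 fits with 1 array left out) and Plin2, a lipid droplet coat protein, was lower (-1.18 ± 0.31, adjusted p = 0.089). The number lower was 2 without WTAL replicate 3 or WTCR replicate 3.

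Partners were counted in the same way, beside 4.25% of all probe sets called higher in WTCR against WTAL and 3.81% lower. Among 22 probe sets for 19 coregulators, 4 were higher in WTCR and 0 lower, namely those of Ppargc1a, Ppargc1b and Gps2. Ppargc1a, a coactivator of fasting genes, had 2 probe sets, and the one with the smaller p gave 1.01 ± 0.17 (adjusted p = 0.022 from limma), while Ppargc1b gave 0.51 ± 0.15 (adjusted p = 0.12). Gps2 (0.38) was not called without replicate 1 of WTAL or of WTCR, nor without the array labelled WTAL replicate 2. Among 12 other nuclear receptors outside the list of 35, 3 were higher in WTCR and 0 lower, namely Nr1d2, a repressor of the clock (0.66 ± 0.19), Hnf4a, which maintains hepatocyte identity (0.40 ± 0.12, ended without WTAL replicate 1 at 0.29), and Nr1h4, the bile acid receptor (0.42 ± 0.16, not called with WTAL replicate 2 or 3, or with WTCR replicate 1 or 3, left out, the lowest at 0.36). Without the array labelled WTAL replicate 2 or WTCR replicate 1, 1 of these receptors was lower. In Dgat1-/-AL 0 of the coregulators and 0 of these receptors were called, but 1 coregulator was higher without WTAL replicate 1, WTAL replicate 3 or Dgat1-/-AL replicate 3, and 1 receptor without Dgat1-/-AL replicate 1. Of the clock genes, Per1 was higher by 2.15 ± 0.15 in WTCR, and the 2 probe sets of Ciart were higher by 2.52 ± 0.19 and 3.37 ± 0.33.

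Markers of other liver cells moved with the groups, and their part in the receptor values was not tested. Of all probe sets 3.81% were called lower in WTCR against WTAL, and 0.76% lower and 0.465% higher in Dgat1-/-AL. Among 12 markers of macrophages and Kupffer cells, calorie restriction and Dgat1 loss each went with 4 lower. Their median log2 fold changes were -0.33 in WTCR and -0.49 in Dgat1-/-AL. Their mean log2 signals per array were 8.36 to 9.03 in WTAL, 8.04 to 8.69 in WTCR and 8.13 to 8.61 in Dgat1-/-AL. Clec4f and Adgre1, which define Kupffer cells and macrophages, were lower by -0.76 ± 0.14 and -1.13 ± 0.27 in WTCR. The WTCR count was 7 without WTAL replicate 1. The Dgat1-/-AL count was 8 without WTAL replicate 1 and 2 without any of WTAL replicate 2, WTAL replicate 3 and Dgat1-/-AL replicate 3. Of 11 sinusoidal endothelial probe sets 1 was lower in WTCR (Clec4g, 2.01-fold, 6 lower without WTCR replicate 1, 2 without Dgat1-/-AL replicate 2), and 4 were higher and 2 lower in Dgat1-/-AL, with array means of 7.34 to 7.54, 7.06 to 7.44 and 7.49 to 7.81 in the same order of groups. Of 10 stellate cell markers 4 were lower in WTCR, including Col3a1 (-0.55 ± 0.055) and Colec11 (-0.49 ± 0.11), and 0 in Dgat1-/-AL, with array means of 7.43 to 7.52, 7.19 to 7.27 and 7.46 to 7.60. Of 9 genes on the lymphocyte list 5 were lower in WTCR, including Ptprc (-1.28 ± 0.18) and Nkg7 (-0.89 ± 0.14), with array means of 5.42 to 5.58, 4.96 to 5.09 and 5.20 to 5.36, on both sides of the background value of 5.22. Only 2 of them were counted lower once probe sets with low signals were filtered out. In Dgat1-/-AL 1 gene of this list was lower, Ptprc, which marks leukocytes in general, macrophages included, and not lymphocytes alone. The count was 0 when replicate 1 or 3 of either group was left out and 2 without the array labelled WTAL replicate 2. Of 5 cholangiocyte markers 0 were called, and their array means of 5.19 to 5.35 lay near background. Of 10 hepatocyte probe sets 1 was lower in WTCR, 1 of the 2 for Fga, a fibrinogen chain (-1.23 ± 0.38). The count was 2 lower without Dgat1-/-AL replicate 1, and 1 hepatocyte probe set was higher without any of WTAL replicates 1, 2 and 3 and WTCR replicate 3. Between WTCR and Dgat1-/-AL, the comparison in which Nr5a2 was called, 8 of the 11 endothelial probe sets were lower in WTCR and 1 higher. Also lower there were 1 macrophage marker, 3 stellate cell markers and 2 genes of the lymphocyte list (Ptprc and Nkg7), where 3.93% of all probe sets were called lower. Of the 10 hepatocyte probe sets 2 were lower there, those of Fga, and 1 was higher, that of Tat, where 4.66% of all probe sets were called higher. The number of hepatocyte probe sets higher was 0 to 1 with 1 array left out. Nr1i2, Nr1h3 and Esr1 are known from hepatocytes, and Nr1h3 is also known from Kupffer cells. Which cells their differences in WTCR came from was not tested.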

How the data were processed

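Liver RNA of 9 mice was hybridised to Affymetrix Mouse Gene 1.0 ST arrays. The deposited values are log2 signals, produced by the authors with RMA (background correction, quantile normalization and probe summary); its version was not given in the sources used here. No further normalization or filter was applied. Gene names come from the platform annotation. A linear model with 1 mean per group was fitted to all 28815 probe sets and 9 arrays with limma 3.58.1 (R 4.3.3, moderated by eBayes), and p-values were adjusted by the Benjamini-Hochberg method over all probe sets. The call rule, taken from the study, asks for more than a 1.3-fold difference together with an unadjusted p below 0.05. The procedure was tested on simulated data. RMA compresses fold changes of dim probe sets, and the number of arrays limits the precision. The 10 receptors given per array were those called in any comparison together with Nr1h3, Nr1i2, Nr1i3, Rxra, Nr5a2, Esr1, Ppard, Pparg and Rora; from each other list at most 2 genes with the smallest p were chosen, and further target genes were named after their values were seen. The receptors and lists were chosen with earlier results of these data known. Same-numbered WTCR and Dgat1-/-AL arrays deviated together from their group means (r = 0.477, 0.252 and 0.211 over probe sets), which WTAL arrays did not share (r from -0.325 to 0.0454). Promoter sequences are from RefSeq on GRCm38.p6, where 33 of the 35 receptors had a window. Alternatives were the low-signal filter, single-symbol probe sets, 2-group fits, a trended and robust spread, array weights, median centring, the replicate number as a block, an adjusted p as the call rule and each array left out. Receptor proteins were not analysed here.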

Additional observations from a re-analysis of the deposited data

How the results depend on the processing

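With 1 array left out, the receptors called in WTCR against WTAL numbered 0 to 3 higher (0 without WTAL replicate 3, 1 without WTAL replicate 1 or WTCR replicate 1) and 2 to 2 lower, and those in WTCR against Dgat1-/-AL 1 to 3 higher (1 without WTCR replicate 1) and 1 to 4 lower (1 without Dgat1-/-AL replicate 3). With an adjusted p under 0.05 as the rule, they numbered 0 higher and 0 lower against WTAL and 1 higher and 0 lower against Dgat1-/-AL. Array weights left 1 higher in WTCR against WTAL, where Nr3c2 gave 0.38, and in the fit of those 2 groups alone Rxra took the place of Nr3c2. The count for Dgat1-/-AL against WTAL was 0 in each direction under every alternative run. With the replicate number as a block, 2 were higher and 2 lower in WTCR against WTAL and 2 higher and 3 lower against Dgat1-/-AL, so the block changed no such count. The block fits the same replicate effect in every group. It therefore cannot fully account for deviations that WTCR and Dgat1-/-AL arrays shared and WTAL arrays did not. The labels do not state that same-numbered arrays were paired. Among the other lists the block ended the Pltp call and gave 2 clock probe sets lower against WTAL in place of 1. Against Dgat1-/-AL it left 1 LRH-1 target lower in place of 2. Median centring shifted the groups by at most 0.03 on the log2 scale. Signs of receptors turned only in differences that were not called: for the 10 receptors given per array, these follow with their range over the 9 fits that leave out 1 array, and among the 23 others they turned for 9 in WTCR against WTAL, 11 in Dgat1-/-AL against WTAL and 11 in WTCR against Dgat1-/-AL, all with differences of at most 0.13. Differences of target, partner and marker genes in Dgat1-/-AL that were not called are left out singly, a choice made after some of their signs had been seen to turn when 1 array was left out. In WTCR against WTAL, Nr1i3 gave -0.0058 to 0.38, the lowest without WTCR replicate 1. In Dgat1-/-AL against WTAL, Esr1 gave -0.33 to 0.067 (highest without WTAL replicate 3), Nr1i2 -0.11 to 0.026 (above 0 without WTAL replicate 2 or Dgat1-/-AL replicate 1), Ppard -0.084 to 0.037 (highest without WTAL replicate 1), Rora -0.045 to 0.12 (lowest without WTAL replicate 2) and Rxra -0.098 to 0.69 (lowest without Dgat1-/-AL replicate 1). In WTCR against Dgat1-/-AL, Rxra gave -0.087 to 0.70, the lowest without Dgat1-/-AL replicate 2. Dim receptors limit what 3 arrays per group can show: 9 of 33 were near background, and a difference missing there may have been too small for these arrays to detect. Nr1h5 and Nr0b1, near background, were among the 11 receptors with an unadjusted limma p under 0.05 in WTCR against WTAL.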
